A study of Rattus norvegicus with 12 samples.

Results

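Mixed glial cultures from neonatal rat brain were exposed to a mixture of T-helper type 1 (Th1) cytokines, and their gene expression was set against that of control cultures. The arrays were chosen by their titles, which gave 3 labelled Th1 and 3 labelled control, 6 of the 12 arrays of the series, and a code in the title ties each Th1 array to the control of the same experiment. The Th1 mixture held recombinant rat interleukin-2 (IL-2), interferon-γ (IFN-γ), tumor necrosis factor-α (TNF-α) and granulocyte-colony stimulating factor (G-CSF), each at 10 ng/ml, and acted for 6 hours. Control cultures received additional medium over the same time. All cultures had been kept for 6 to 8 days in a defined medium that held fetal bovine serum at 2%, and the methods describe oligodendrocytes and astrocytes as their main cells, with fewer microglia. The strain, sex and number of the rats are not given in the sources used here. The other 6 arrays came from sister cultures of the same 3 experiments, given monocyte/macrophage (M/M) cytokines (by the labels IL-1α, IL-1β, IL-12p40 and TNF-α, to which the methods add IL-6) or Th2 cytokines (by the labels porcine TGF-β1 with IL-5, G-CSF and IL-10, to which the methods add IL-4). They serve here to estimate the spread between arrays and to set the arrays beside their labels.

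IFN-γ binds a receptor that signals through the JAK-STAT pathway. This pathway acts on promoters at IFN-γ activated sites (GAS), and the interferon regulatory factors made in turn act at interferon-stimulated response elements (ISRE). TNF-α acts through NF-κB, which enters the nucleus when its inhibitors are degraded and drives genes for chemokines, adhesion molecules and its own inhibitors. In glia both cytokines are known to induce chemokines and antigen presentation, and microglia and astrocytes carry receptors for them.

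RNA of each culture was hybridized to 1 Affymetrix RG-U34A array, and the signals are linear values per probe set with no stated unit. Of 8799 probe sets, 59 array controls were left out and 8740 were tested. Median signals of the arrays labelled control and Th1 were 59.1 and 57.0 in experiment 1, 38.4 and 61.0 in experiment 2, and 26.9 and 24.5 in experiment 3. The control array of experiment 2 was thus dimmer than its Th1 partner, and the arrays of experiment 3 were dimmer than all the others of their groups. The median log2 fold change of Th1 over control, taken across every probe set, was 0.21 in experiments 1 and 2 and 0.14 in 3 experiments, and -0.10 in the former after each array was centred on its median. The number of arrays limits the precision, and cells of 1 type becoming fewer cannot be told apart from less RNA in each of them.

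The 3 pairs did not behave alike, and genes that IFN-γ induces went against the labels of experiment 3. Cxcl10, a chemokine for activated T cells, had signals of 31.9, 20.9 and 181 in the control arrays of experiments 1, 2 and 3. In the arrays labelled Th1 it had 3640.4, 1874 and 23.8. The pairs of experiments 1 and 2 were 114-fold and 89.6-fold higher with Th1 cytokines, whereas in experiment 3 the array labelled Th1 was at 0.131 times its control. Cd74, the invariant chain of MHC class II molecules, had 41.0, 5.11 and 4.10 in control arrays and 989, 344 and 3.70 in the arrays labelled Th1. The array labelled M/M of experiment 3 had 1379.7, although its mixture holds no IFN-γ by its label or by the methods, and the M/M arrays of experiments 1 and 2 had 49.0 and 10.5. Rsad2, which encodes the antiviral protein viperin, had 2949.7 and 979.7 with Th1 cytokines in experiments 1 and 2 but 30.9 in the array labelled Th1 of experiment 3, where control had 151. In the arrays labelled M/M and Th2 of experiment 3 it had 2925.7 and 725.4. The M/M arrays of experiments 1 and 2 had 850 and 104, above controls of 27.3 and 33.9, and the Th2 arrays had 26.9 and 30.6. Il1b and Ccl20, which were highest with M/M cytokines in experiments 1 and 2, were highest in the array labelled Th2 in experiment 3. Il1b had 2544.3 and 1144.9 in the M/M arrays of experiments 1 and 2 and 97.6 and 48.3 in the Th2 arrays, but 791 in the array labelled M/M of experiment 3 and 2145.2 in the one labelled Th2. Ccl20 had 3642.3 and 1651.6 with M/M and 88.0 and 64.9 with Th2 cytokines there, but 657 and 2344.7 in the arrays labelled M/M and Th2 of experiment 3.

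**Figure D1:**
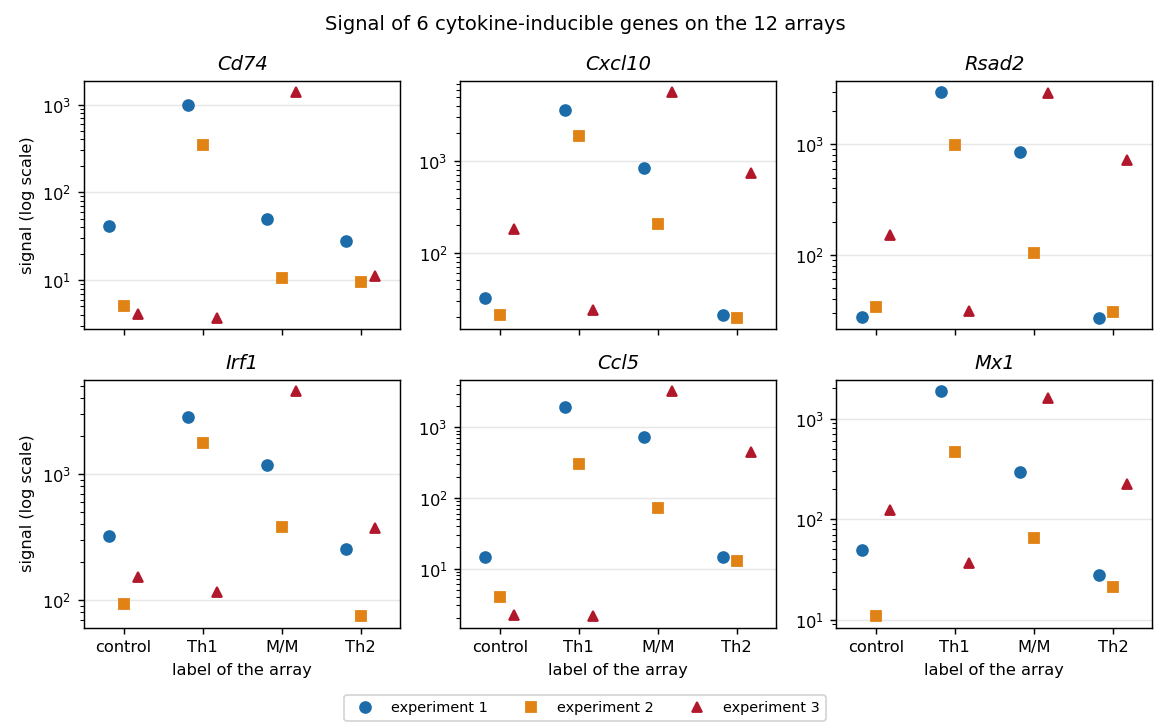
Signal (log axis) of 6 genes on each of the 12 arrays, set out by the label of the array, with 1 point per array and a colour and shape for each experiment. In experiments 1 and 2 the arrays labelled Th1 are the highest of each gene, whereas in experiment 3 the highest is the array labelled M/M.

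Most, but not all, measured genes of the treatment check went the same way. Of the 16 genes listed to check the treatment, 9 have a probe set named for them. By their brightest probe sets Rsad2, Irf1, Gbp2, Cxcl10, Mx1, Cd74 and Psmb9 had a lower signal in the array labelled Th1 of experiment 3 than in its control, whereas Psmb8 and Tap1 were at 1.29 and 1.22 times control. Over all probe sets 51.8% were lower in this pair. Irf1, Psmb9 and Cd74 were lower by little, at 0.760, 0.783 and 0.902 times control, and Cd74 was dim in both arrays. Across 4855 probe sets with a mean log2 signal of at least 5, the log2 ratios of pairs 1 and 2 correlated with Pearson's r of 0.388 and Spearman's rho of 0.0826. For pairs 1 and 3 these were -0.104 and -0.0944, and for pairs 2 and 3 they were -0.0300 and -0.0377. Over all 8740 probe sets pairs 1 and 2 had only 0.113 and 0.0105. Pairs 1 and 3 had -0.0642 and -0.0909 there, and pairs 2 and 3 had 0.0209 and 0.00770. The filter uses the mean over 12 arrays, so that genes can pass it through the arrays where they are high. These correlations run across probe sets, which are not independent replicates, and the probe sets of a pair share its 2 arrays. Arrays of experiment 3 are therefore named by their labels, and the tests whose calls are described below use experiments 1 and 2. This choice was made with results known, and the genes checked here are among those tested. Their adjusted p-values in experiments 1 and 2 are therefore not independent of the choice. Over 3 experiments Cxcl10, Cd74, Irf1, Mx1 and Gbp2 each had a limma adjusted p of 0.857. Whether arrays or labels of experiment 3 were exchanged was not tested, so that every value of that experiment, and every count over 3 pairs, rests on labels that these genes go against.

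**Figure D2:**
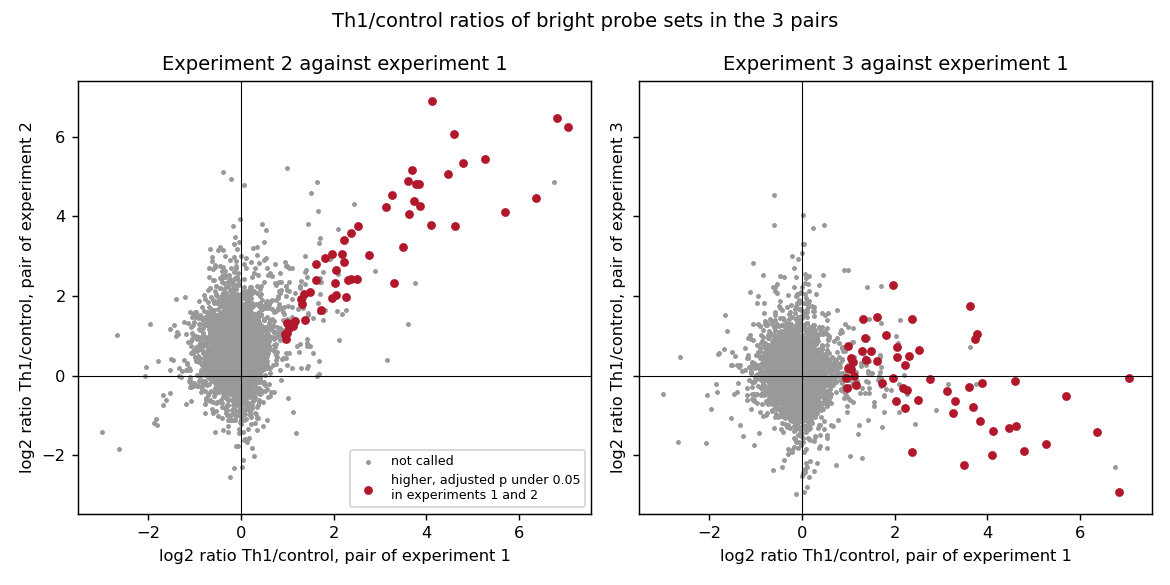
Log2 ratio of Th1 over control of 4855 bright probe sets in the pair of experiment 2 (left) and of experiment 3 (right) against the pair of experiment 1, with 1 point per probe set. Red points passed the test in experiments 1 and 2, which chose them by these axes, and in experiment 3 they lie on both sides of 0.

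In experiments 1 and 2 the Th1 cytokines raised genes of the interferon response, chemokines, antigen presentation and the NF-κB response. By limma with experiment as a block, and with the 4 M/M and Th2 arrays of these experiments sharing the estimate of spread, 56 probe sets were higher (0.641% of those tested) and 2 lower (0.0229%) at an adjusted p under 0.05. The 56 stand for 45 probe sets with 1 gene symbol, 2 with several and 9 with none, and together name 35 genes. With all 3 experiments, limma called 0 probe sets (0.0%) in either direction, while 415 (4.75%) were higher and 71 (0.812%) lower at an unadjusted p under 0.05. In experiments 1 and 2 those unadjusted counts were 649 (7.43%) and 129 (1.48%). The methods' screening criteria, a change over 2-fold with an analysis of variance p under 0.2, took 174 probe sets as higher (1.99%) and 68 as lower (0.778%) in 3 experiments, and 292 (3.34%) and 65 (0.744%) in experiments 1 and 2. The change was taken here as the mean log2 ratio within experiments, and the analysis of variance as one of Th1 and control alone. The methods describe an analysis that took in all 3 mixtures, so these counts are not a repeat of theirs. The calls in experiments 1 and 2 rest on the design and on single arrays. Limma called 0 either way without the block or without the variance trend, with 360 and 604 probe sets higher at an unadjusted p under 0.05. It called 3 higher without the Th1 array of experiment 1, 0 without that of experiment 2, 10 without the control of experiment 2 and 1767 without the control of experiment 1.

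These 56 probe sets were chosen in experiments 1 and 2, so experiment 3 gives a separate reading of them. In its pair 23 of 56 were higher and 33 lower, with a median log2 ratio of -0.12 (from -2.93 to 2.28), against 47.0% higher and 51.8% lower over all probe sets. In the arrays labelled M/M and Th2 of experiment 3, 56 and 54 of them were higher than the same control, with medians of 3.40 and 1.37. Over all probe sets 81.7% and 62.2% were higher there, and these comparisons share 1 control array. The M/M arrays of experiments 1 and 2 also had all 56 higher than control, with a median log2 ratio of 1.79 in each. Over all probe sets 48.4% and 70.4% were higher in them. In the Th2 arrays of experiments 1 and 2, 20 and 45 were higher, beside 46.5% and 73.4% of all probe sets. These arrays share their controls with the Th1 arrays that chose the 56. Of the 31 genes whose brightest probe set passed in experiments 1 and 2, 12 were higher in the pair of experiment 3 and 19 lower.

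**Figure D3:**
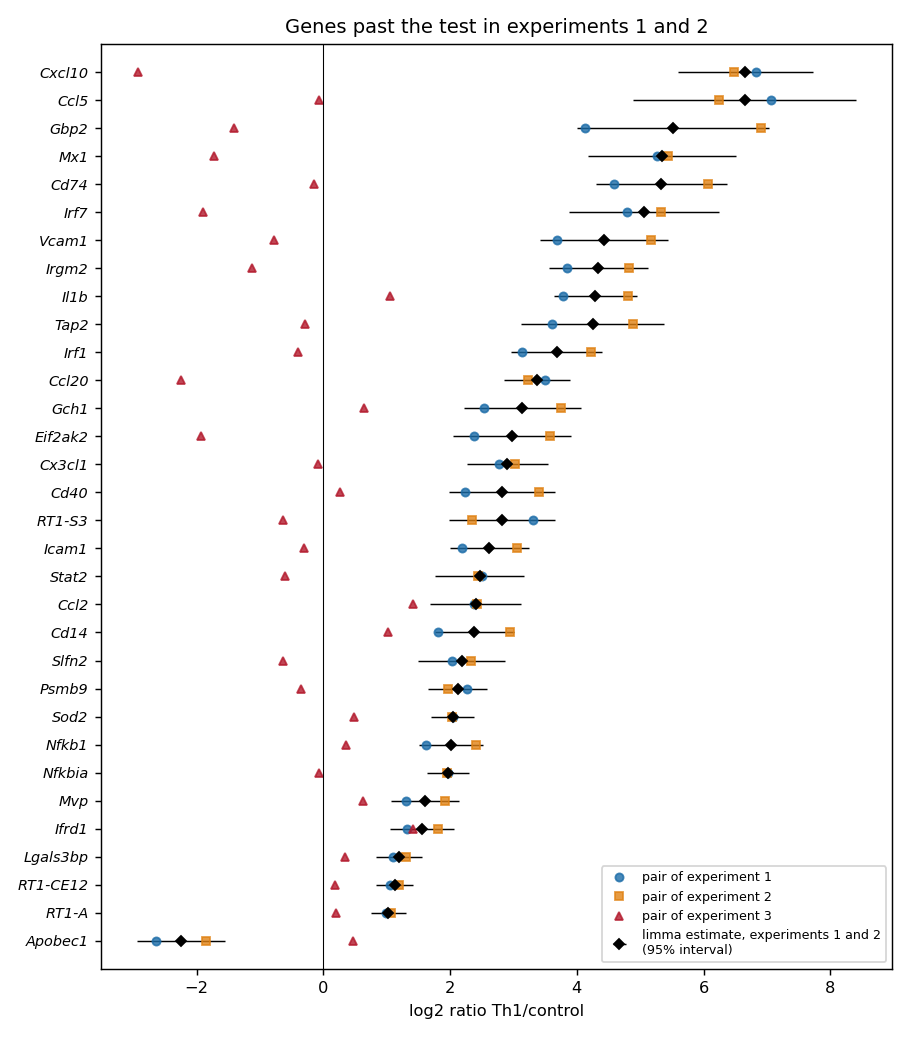
Log2 ratio of Th1 over control for the 31 genes that rose and the 1 that fell by their brightest probe set in experiments 1 and 2, with the limma estimate and its 95% interval in black and the ratio within each pair in colour. The ratios of experiment 3 lie between -2.93 for Cxcl10 and 1.42 for Ccl2 and Ifrd1, left of the black interval for all the raised genes but Ifrd1.

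Promoter sequence of the raised genes is shown because GAS, ISRE and NF-κB elements are where the added cytokines act. RefSeq promoters (build GRCr8, which is not a build used to make the signals) were matched for 31 of the 35 genes. The 250 bases before the annotated start were searched on both strands for TTC and GAA with 3 bases of any kind between them (GAS), TTTC and TTTC with 2 between (ISRE), and GGG and CC with 5 between (NF-κB). ISRE letters stood in 11 of 31 promoters (35.5%), against 3.29% of 27457 RefSeq promoters and 2.74% of 3871 promoters of genes on the array. GAS letters stood in 5 (16.1%), against 7.52% and 6.38%. NF-κB letters stood in 21 (67.7%), against 43.5% and 58.5%. Windows are printed for the 15 most strongly raised genes and the raised genes of the treatment check, where they hold a match, 5′ to 3′ on the gene's strand, with the motif letters in capitals and positions counted back from the start of transcription. A GAS match stood in Irf1, and a GAS and an ISRE match lay beside each other in Irgm2.
Irf1 (chr10:38417781-38417813, plus strand, first capital at -142): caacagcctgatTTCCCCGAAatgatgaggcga
Irgm2 (chr10:42889845-42889889, plus strand, first capital at -113): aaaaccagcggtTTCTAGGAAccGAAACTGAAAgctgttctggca
An ISRE match, on either strand, stood in the following promoters, and in Cxcl10 it lay at the far end of the window searched.
Cxcl10 (chr14:15988816-15988844, plus strand, first capital at -243): cgctttgGAAAGTGAAActtaactcactc
Gbp2 (chr2:234005684-234005717, plus strand, first capital at -31): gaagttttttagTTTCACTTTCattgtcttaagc
Irf7 (chr1:205800071-205800104, minus strand, first capital at -69): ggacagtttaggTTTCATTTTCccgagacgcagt
Eif2ak2 (chr6:21941126-21941153, plus strand, first capital at -16): ggagtccgccggGAAAACGAAAcagaga
Rsad2 (chr6:48788246-48788279, minus strand, first capital at -147): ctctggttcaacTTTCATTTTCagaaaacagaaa
Vcam1 (chr2:206742808-206742841, minus strand, first capital at -46): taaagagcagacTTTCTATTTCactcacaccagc
Tap1 (chr20:4668643-4668676, minus strand, first capital at -121): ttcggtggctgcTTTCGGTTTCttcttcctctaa
Tap2 (chr20:4652316-4652349, minus strand, first capital at -41): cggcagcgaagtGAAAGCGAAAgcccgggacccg
In the promoters that follow, the bases searched held NF-κB letters and no GAS or ISRE letters, which is common among all promoters. Those of Il1b and Cx3cl1 held no letters of any of the 3 motifs, and Ccl5 was not matched, so that no window is shown for them.
Ccl20 (chr9:91837030-91837099, plus strand, first capital at -91): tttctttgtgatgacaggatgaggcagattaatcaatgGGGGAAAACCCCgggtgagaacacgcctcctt
Cd74 (chr18:56527038-56527120, plus strand, first capital at -156): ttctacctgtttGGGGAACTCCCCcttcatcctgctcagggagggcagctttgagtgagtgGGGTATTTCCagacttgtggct
Gch1 (chr15:22917413-22917480, minus strand, first capital at -28): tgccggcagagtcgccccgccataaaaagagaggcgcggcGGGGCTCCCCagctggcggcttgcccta
Mx1 (chr11:50294783-50294816, minus strand, first capital at -198): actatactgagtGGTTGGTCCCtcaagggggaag
Psmb9 (chr20:4668935-4668999, plus strand, first capital at -48): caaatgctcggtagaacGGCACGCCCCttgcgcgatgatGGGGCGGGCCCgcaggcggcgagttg
The letters shown for Tap1 and Psmb9 lie close to each other, since these genes are divergent neighbours on chromosome 20. A match in a window is a description of letters, and binding was not measured.

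Transcription factors and effectors of the interferon response rose in experiments 1 and 2. Of 54 listed interferon-inducible genes 16 were measured, and 8 of them rose and 0 fell, beside 31 of all 4736 genes that rose and 1 that fell. Their median log2 fold change was 2.61 (2.31 centred) beside 0.21 (-0.09 centred) for all genes. In the pairs of experiments 1, 2 and 3 their median log2 ratios were 2.55, 2.53 and -0.63, and in experiment 3, 3 of 16 were higher. Of all genes 2042, 3677 and 2240 of 4736 were higher in the 3 pairs, with median log2 ratios of -0.042, 0.48 and -0.032. Irf1, a transcription factor induced early by IFN-γ, had control signals of 325, 93.8 and 153 in experiments 1, 2 and 3. The arrays labelled Th1 had 2849.5, 1761 and 116. Both Th1 arrays of experiments 1 and 2 lay above every control, a log2 fold change of 3.68 (SE 0.29, limma adjusted p = 0.00965), and that of experiment 3 lay within the control range. A second Irf1 probe set, with controls of 547, 1034 and 35.6 and 1182, 1189 and 36.6 in the arrays labelled Th1, had 0.66 (adjusted p = 0.507). Irf7, the factor that drives type I interferon genes, went from 47.0 and 9.21 to 1299 and 371 in experiments 1 and 2. It rose by a log2 fold change of 5.06 (SE 0.49, limma adjusted p = 0.0157), while experiment 3 had 105 in control and 28.1 in the array labelled Th1.

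Mx1, Gbp2, Irgm2 and Eif2ak2, which act in antiviral and cell-autonomous defence, rose in experiments 1 and 2 and stood below control in the array labelled Th1 of experiment 3. Mx1, a GTPase that blocks virus replication, had 49.5, 10.7 and 122 in control arrays and 1895, 464 and 36.9 in those labelled Th1. It rose 38.3-fold and 43.2-fold in the pairs of experiments 1 and 2 (log2 fold change 5.35, SE 0.48, limma adjusted p = 0.0145), while the array labelled Th1 of experiment 3 stood at 0.301 times control. Gbp2, a guanylate-binding GTPase that acts on intracellular pathogens, had 149, 10.7 and 93.7 in control and 2603, 1281 and 35.4 in the arrays labelled Th1. It rose 17.4-fold and 120.2-fold, with controls further apart between the experiments than the Th1 signals, and the log2 fold change was 5.52 (SE 0.62, adjusted p = 0.0273). Rsad2 just missed the threshold by its brightest probe set (log2 fold change 5.81, SE 0.81, adjusted p = 0.0514, 0.0161 centred), and passed by its other one (5.42, SE 0.72, adjusted p = 0.0423), whose controls were 31.9 and 37.1 and Th1 signals 2651 and 821. Irgm2, an immunity-related GTPase, rose by 4.34 (SE 0.32, adjusted p = 0.00795), Eif2ak2, the double-stranded RNA-activated kinase PKR, by 2.97 (adjusted p = 0.0371), and Stat2, a transcription factor of type I interferon signalling, by 2.47 (adjusted p = 0.0298). Slfn2, an interferon-regulated gene of lymphoid and myeloid cells, rose by 2.18 (adjusted p = 0.0371). Lgals3bp, a secreted glycoprotein, rose by 1.20 (adjusted p = 0.0338), a call lost with centring (adjusted p = 0.0631). In the pair of experiment 3 Irgm2, Eif2ak2, Stat2 and Slfn2 stood at 0.456, 0.262, 0.659 and 0.645 times control, and Lgals3bp at 1.27 times.

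Of the genes that rose, the chemokines Cxcl10 and Ccl5 had the largest log2 fold changes. Of 34 listed chemokines 15 were measured and 5 rose in experiments 1 and 2, beside 31 of all 4736 genes. The median log2 fold change over the list was 1.73 (1.42 centred). Cxcl10 rose by 6.66 (SE 0.44, limma adjusted p = 0.00665). Ccl5, or RANTES, which draws T cells and monocytes, had 14.7, 3.93 and 2.20 in control and 1960.1, 298 and 2.10 in the arrays labelled Th1. It was near the low end of the scale in every control, and rose by 6.65 (SE 0.72, adjusted p = 0.0235). Ccl20, the ligand of CCR6, had 129, 71.3 and 66.7 in control and 1461, 670.3 and 14.1 in the arrays labelled Th1, a log2 fold change of 3.37 in experiments 1 and 2 (SE 0.21, adjusted p = 0.00634). Cx3cl1, fractalkine, the ligand of the microglial receptor CX3CR1, had 187, 66.4 and 113 in control and 1279, 542 and 106 in the arrays labelled Th1, and rose by 2.90 (SE 0.26, adjusted p = 0.0145).

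Ccl2, which draws monocytes, was higher in all 3 pairs. It had 898, 583 and 986 in control and 4659.6, 3135 and 2634 in the arrays labelled Th1. All 3 arrays labelled Th1 lay above all 3 controls, which held for 135 probe sets (1.54%), and the pairs were 5.19-fold, 5.38-fold and 2.67-fold higher. The log2 fold change was 2.40 in experiments 1 and 2 (SE 0.30, limma adjusted p = 0.0335) and 2.07 in 3 experiments (SE 0.35, adjusted p = 0.258). Ccl3, or MIP-1α, was higher in 3 of 3 pairs (3.12-fold, 29.2-fold and 1.29-fold) without passing in either fit, with an adjusted p of 0.208 in experiments 1 and 2. Centring brought it past the threshold there (adjusted p = 0.0455).

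Some MHC class I genes and parts of the machinery that supplies their peptides rose in experiments 1 and 2. Of 41 listed genes 17 were measured and 4 rose, beside 31 of all 4736 genes. The median log2 fold change of the list was 0.90 (0.60 centred), and in the pair of experiment 3 its median log2 ratio was 0.12. Tap2, a subunit of the peptide transporter into the endoplasmic reticulum, had 31.9, 3.30 and 52.6 in control and 389, 97.8 and 42.8 in the arrays labelled Th1. It rose by 4.25 (SE 0.46, limma adjusted p = 0.0235). Its partner Tap1 rose by 1 of its probe sets, from 68.2 and 28.4 to 1003 and 548 (4.07, SE 0.25, adjusted p = 0.00634). The brighter Tap1 probe set, with controls of 387 and 322 and Th1 signals of 559 and 605, had 0.72 (adjusted p = 0.199). The 2 Tap1 probe sets thus gave different sizes in the same direction, as the Irf1 and Psmb9 probe sets did.

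Psmb9, an inducible catalytic subunit of the immunoproteasome, had 350.0, 160.3 and 113 in control and 1681, 629 and 88.6 in the arrays labelled Th1, and rose by 2.12 (SE 0.19, adjusted p = 0.0145). Its other probe set had 0.74 (adjusted p = 0.201). Psmb8, another such subunit, had ratios of 2.74, 1.19 and 1.29 in the 3 pairs and did not pass (log2 fold change 0.85, adjusted p = 0.511). Among class I heavy chains RT1-S3 rose by 2.82 (adjusted p = 0.0333), RT1-CE12 by 1.12 (adjusted p = 0.0208) and RT1-A by 1.03 (adjusted p = 0.0273). Centring ended the calls of RT1-CE12 (adjusted p = 0.08) and RT1-A (adjusted p = 0.209). In the pair of experiment 3 the 3 genes were at 0.643, 1.13 and 1.15 times control. These belong to a family of near-identical genes, so that the probe sets cannot be told to measure 1 member, and 9 of the 56 raised probe sets are of the kind made for such families.

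Of the class II genes, 11 of 14 were measured and 1 rose by its brightest probe set, beside 31 of all 4736 genes. The median log2 fold change of the list was 0.74 (0.44 centred). Cd74 rose by 5.33 (SE 0.42, limma adjusted p = 0.00965). RT1-Da, the class II alpha chain, rose by 1 probe set from 15.2 and 10.0 to 793 and 174 (4.91, adjusted p = 0.0275), while its brightest one went from 46.4 and 79.6 to 413 and 104 (1.77, adjusted p = 0.523). Experiment 3 had 17.1 in control and 14.8 in the array labelled Th1 by the latter.

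Targets and regulators of NF-κB rose in experiments 1 and 2. Of 48 listed genes 28 were measured and 11 rose, beside 31 of all 4736 genes, with a median log2 fold change of 1.99 (1.68 centred). Of these calls, Ccl2, Ccl5, Ccl20 and Cx3cl1 also count among the chemokines, and Vcam1, Icam1 and Sod2 on other lists. In the 3 pairs the median log2 ratios of the list were 1.44, 2.22 and 0.31, and 17 of 28 were higher in experiment 3. Nfkbia, the inhibitor that NF-κB itself induces, had 288, 158 and 90.4 in control and 1129, 609 and 86.5 in the arrays labelled Th1. It rose by 1.96 (adjusted p = 0.00677). Nfkb1, for the p105 precursor of a subunit, rose by 2.01 (adjusted p = 0.0198) and was at 1.28 times control in experiment 3. Sod2, the mitochondrial superoxide dismutase, had 326, 229 and 98.8 in control and 1346, 933 and 137 in the arrays labelled Th1. It rose by 2.04 (SE 0.14, adjusted p = 0.00677).

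Adhesion molecules and receptors followed. Vcam1, the ligand of the integrin VLA-4, had 117, 14.5 and 71.6 in control and 1504, 521 and 41.7 in the arrays labelled Th1, and rose by 4.43 (SE 0.41, limma adjusted p = 0.0153). Icam1, the ligand of LFA-1, had 410.1, 171 and 397 in control and 1863, 1413 and 321 in the arrays labelled Th1, and rose by 2.62 (SE 0.25, adjusted p = 0.0161). In experiment 3 both were below control by these probe sets, at 0.582 and 0.809 times, whereas a second Icam1 probe set was at 1.54 times. The costimulatory receptor gene Cd40 rose by 2.82 (SE 0.34, adjusted p = 0.0333), and was at 1.19 times control in experiment 3.

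Il1b, Cd14 and Gch1 were higher in all 3 pairs. Il1b, the proinflammatory cytokine of microglia, had 98.5, 26.9 and 53.4 in control and 1347, 753 and 110.3 in the arrays labelled Th1. It was 13.7-fold, 28.0-fold and 2.07-fold higher, a log2 fold change of 4.29 in experiments 1 and 2 (SE 0.27, limma adjusted p = 0.00634) and 3.21 in 3 experiments (SE 1.13, adjusted p = 0.857). Cd14, the lipopolysaccharide co-receptor of microglia, had 773, 365 and 366 in control and 2722, 2822 and 739 in the arrays labelled Th1. The array labelled Th1 of experiment 3 lay within the control range of the other experiments but at 2.02 times its own control. Cd14 rose by 2.38 in experiments 1 and 2 (SE 0.25, adjusted p = 0.0228). Gch1, the first enzyme of tetrahydrobiopterin synthesis, had 40.5, 9.71 and 42.8 in control and 235, 131 and 66.4 in the arrays labelled Th1, and rose by 3.14 (SE 0.38, adjusted p = 0.0333).

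Over all probe sets 1223 (14.0%) were higher and 500 (5.72%) lower in 3 of 3 pairs. Apart from the genes above, the largest of these with 1 symbol that were bright were Abcb1b, Plaat3, Mmp3 and Cebpb, none of which passed in either fit. After centring Abcb1b (adjusted p = 0.00566), Cebpb (0.00562) and Plaat3 (0.0401) did pass in experiments 1 and 2. Abcb1b, a drug efflux pump, had 133, 16.1 and 19.8 in control and 431, 176 and 49.1 in the arrays labelled Th1 (log2 fold change 2.15 over 3 experiments, SE 0.59, unadjusted p = 0.00291, adjusted p = 0.687). Cebpb, a transcription factor of the acute phase response, had 191, 52.9 and 146 in control and 502, 428 and 272 in the arrays labelled Th1 (1.77, SE 0.40, adjusted p = 0.599). All 3 signals of Cebpb in arrays labelled Th1 lay above all 3 of control. Plaat3, a phospholipase, was 2.84-fold, 24.2-fold and 1.04-fold higher, and Mmp3, the matrix protease stromelysin, 12.3-fold, 2.44-fold and 1.65-fold.

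Few genes passed as lower in experiments 1 and 2, where arrays were not rescaled. In the pair of experiment 2, 75.9% of all probe sets were higher. Of all 4736 genes, 1 passed as lower by its brightest probe set, and 10 did after each array was centred. Apobec1, a cytidine deaminase that edits RNA, had 814, 381 and 266 in control and 131, 105 and 366 in the arrays labelled Th1. It fell in experiments 1 and 2 (log2 fold change -2.25, SE 0.28, limma adjusted p = 0.0356), whereas in experiment 3 it stood at 1.38 times control. The other probe set that fell is a dim one for Egr4, at 8.00 and 24.3 in control and 1 and 1 with Th1 cytokines (adjusted p = 0.0423), and the brighter Egr4 probe set had a log2 fold change of 0.01. In experiments 1 and 2, 200 to 249 values of each control and Th1 array were exactly 1 and 0 to 3 lay below. This call thus rests on values at the low end of the scale. Lpl, lipoprotein lipase, had 1014, 237 and 382 in control and 126, 88.7 and 278 in the arrays labelled Th1. It was lower in 3 of 3 pairs, at 0.125, 0.374 and 0.729 times control, without passing (log2 fold change -2.21 in experiments 1 and 2, adjusted p = 0.141). After centring it did pass (-2.52, adjusted p = 0.00336), and its other 2 probe sets were also lower in 3 of 3 pairs. The others lower in 3 of 3 pairs among the 10 largest were Rgs18, Nrgn, Flt1, Gjb2, Dcn, Tpm2, Notch4, Alad and Begain, with log2 fold changes over 3 experiments between -1.26 and -0.72 and none passing. Nrgn in the pair of experiment 1 and Rgs18 in that of experiment 2 were at 0.997 and 0.993 times control. In experiments 1 and 2, 2 of the 3 other Dcn probe sets and the 1 other Nrgn probe set had the opposite sign. Gjb2, the gap junction protein connexin 26, had 365, 82.8 and 54.8 in control and 126, 60.8 and 26.1 in the arrays labelled Th1.

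Receptors for the added cytokines and most of the signalling genes behind them did not pass the test. Of 8 receptor genes 5 were measured, and 0 passed, beside 31 of all 4736 genes that rose and 1 that fell. So short a list with 0 calls is near the share of all genes. Ifngr1, the ligand-binding chain of the IFN-γ receptor, had 327, 211 and 40.2 in control and 107, 139 and 86.8 in the arrays labelled Th1. Its log2 fold change in experiments 1 and 2 was -1.11 (95% interval -1.76 to -0.46, limma adjusted p = 0.243), and centring brought it past the threshold (-1.42, adjusted p = 0.00756), while experiment 3 stood at 2.16 times control. Tnfrsf1a, the main TNF receptor, had 0.14 (95% interval -0.30 to 0.58), and turned to -0.17 with centring and -0.060 with quantile normalization. Of 27 JAK-STAT genes 20 were measured and 1, Stat2, rose. Jak2 was at 2.57, 2.70 and 0.733 times control in the 3 pairs (1.40, adjusted p = 0.136), and Stat3 at 1.22, 4.39 and 1.39 times.

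Cytokine genes other than Il1b did not pass, with 31 of 41 measured, 1 raised and a median log2 fold change of 0.33 (0.02 centred). Of all 4736 genes 31 rose and 1 fell. Il1a had 29.5, 23.9 and 16.4 in control and 96.1, 99.3 and 19.1 in the arrays labelled Th1 (1.88, adjusted p = 0.0817). Csf1, the growth factor of microglia, had ratios of 2.33, 3.20 and 0.425 (1.45, adjusted p = 0.0853, 0.0327 centred). Il6 had dim signals of 6.45, 9.87 and 2.00 in control and 44.0, 16.4 and 28.5 in the arrays labelled Th1 (1.75, adjusted p = 0.571). Of 18 measured genes for nitric oxide, arginine and tetrahydrobiopterin, 1, Gch1, rose. Nos2, the inducible nitric oxide synthase, had ratios of 2.73, 2.87 and 2.67 by its brightest probe set (1.48, adjusted p = 0.56), but its other 3 probe sets had 0.14, -0.24 and 0.12. Ass1, which regenerates arginine, had 3.55, 3.54 and 2.80 in control and 85.0, 23.1 and 2.90 in the arrays labelled Th1 (3.64, adjusted p = 0.0957).

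Immediate early and complement genes had 0 calls of 28 and 24 measured, with medians of 0.49 and 0.46 (0.18 and 0.15 centred). Of all 4736 genes 31 rose and 1 fell, so that 0 calls in such lists are near the share of all genes. At an unadjusted p under 0.05 by limma, 11 immediate early and 5 complement genes were higher, beside 376 of all genes. With centring 5 and 2 of them passed as higher, beside 59 of all genes. Junb, a subunit of AP-1, was at 2.14, 6.47 and 1.80 times control (1.90, adjusted p = 0.182), and centring brought it past the threshold (1.59, adjusted p = 0.0305). C1s, a protease of the classical complement pathway, had 182, 12.0 and 51.6 in control and 499.6, 169 and 38.0 in the arrays labelled Th1 (2.63, adjusted p = 0.194, 0.0321 centred). C3, the central complement component, was at 1.69, 4.86 and 3.16 times control (1.52, adjusted p = 0.203, 0.0463 centred). Matrix and adhesion genes had 2 raised of 37 measured, Vcam1 and Icam1, which are also on the NF-κB list. Mmp13, a collagenase, had ratios of 5.71, 4.85 and 1.73 from control signals of 5.51, 3.07 and 4.90 (2.40, adjusted p = 0.122).

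In experiments 1 and 2 the lists of glial and neural function had medians near the 0.21 of all genes. In the pair of experiment 3 they lay away from its median of -0.032, on both sides, the neurotrophin and myelin lists furthest. The myelin-associated genes, 8 of 14 measured, had 0 calls and a median log2 fold change of 0.14 (-0.17 centred), and 0, 8 and 7 of 8 were higher in the 3 pairs, with a median log2 ratio of 0.34 in experiment 3. Mobp, a protein of compact myelin, had 814, 845 and 392 in control and 786, 1377 and 426 in the arrays labelled Th1 (0.33, 95% interval -0.18 to 0.84). In experiments 1 and 2, 2 of the 3 other Mobp probe sets had the opposite sign. Mog, a protein on the outer face of myelin, had 0.22 (95% interval -0.37 to 0.80), which turned to -0.089 with centring. Neurotrophins and their receptors, 15 of 17 measured, had 0 calls and a median of 0.20 (-0.11 centred), and 7, 11 and 1 of 15 were higher in the 3 pairs, with a median log2 ratio of -0.53 in experiment 3. Bdnf had 99.4, 48.9 and 48.8 in control and 147, 107 and 36.2 in the arrays labelled Th1 by its brightest probe set (0.85, 95% interval 0.11 to 1.58, adjusted p = 0.524). The other Bdnf probe sets had log2 fold changes from -0.49 to 1.07, and that with -0.49 was lower in 3 of 3 pairs. Growth factors and receptors (42 measured) and neuronal and synaptic genes (33 measured) had 0 calls, with medians of 0.23 and 0.15. In the pair of experiment 3 their median log2 ratios were -0.23 and -0.25. Of all 4736 genes 31 rose and 1 fell, so that 0 calls in these lists are near the share of all genes. Vgf, a secreted neuropeptide precursor, was at 4.33, 1.85 and 2.62 times control (1.50, adjusted p = 0.19), from control signals of 235, 223 and 133 to 1019, 414 and 349.6. All 3 arrays labelled Th1 lay above all 3 controls for Vgf.

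Cholesterol synthesis genes, 16 of 24 measured, had 0 calls and a median of 0.02 (-0.28 centred), with 0, 12 and 5 of 16 higher in the 3 pairs. The calls here and below stand beside 31 of all 4736 genes that rose and 1 that fell. Fdft1, which makes squalene, was at 0.607, 0.714 and 0.762 times control (-0.60, adjusted p = 0.261), and Fdps, an enzyme before it in the pathway, at 0.751, 0.808 and 0.819 times. In experiments 1 and 2, 1 of the 3 other Fdft1 probe sets and 1 of the 2 other Fdps probe sets had the opposite sign. Apoptosis regulators (18 measured) and cell cycle genes (20 measured) had 0 calls and medians of 0.26 and 0.17. Of 29 heat shock and oxidative stress genes 1, Sod2, rose. Cytosolic ribosomal protein and housekeeping genes (29 measured) had 0 calls and a median of 0.08, with medians of 0.00, 0.19 and 0.11 in the 3 pairs.

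**Figure D4:**
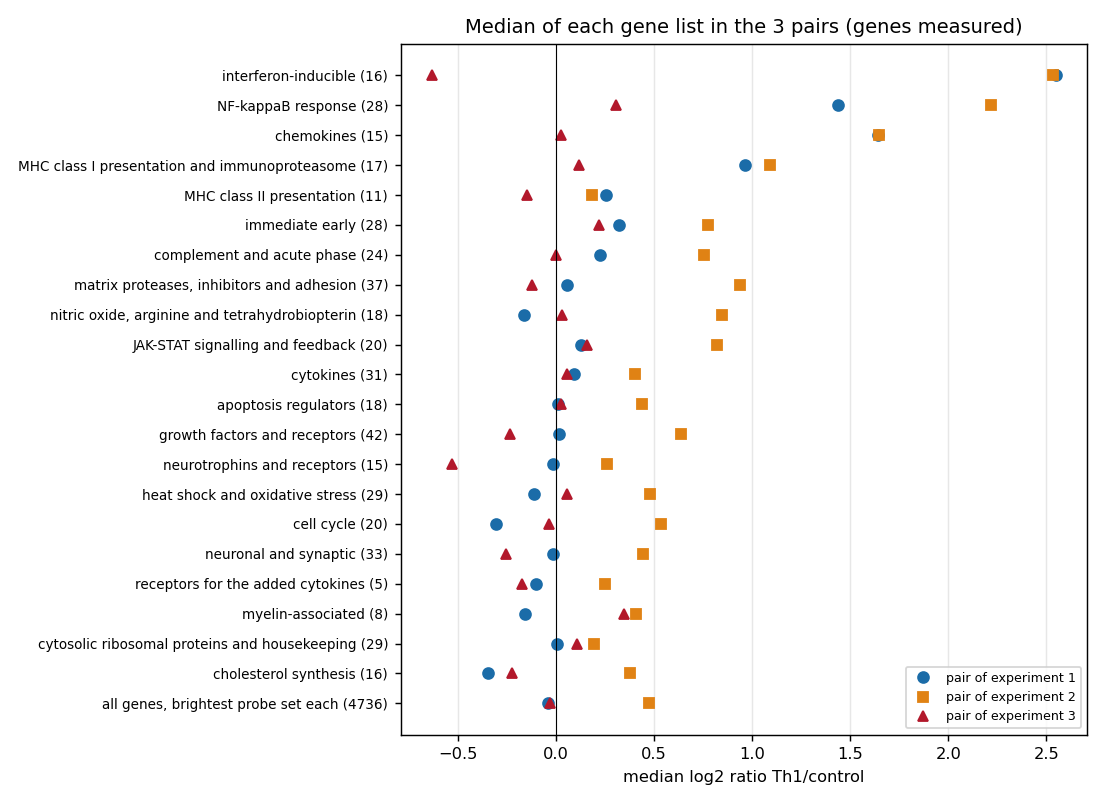
Median log2 ratio of Th1 over control of each gene list within each of the 3 pairs, each gene by its brightest probe set, with the number of genes measured in brackets. The interferon-inducible, NF-κB and chemokine lists lie at 1.44 or above in experiments 1 and 2, and at -0.63, 0.31 and 0.03 in experiment 3, while the median of all genes is 0.48 in experiment 2.

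Markers of the cells were set beside the pairs. The summed signal of 8 astrocyte markers was 0.890, 1.05 and 1.22 times control in experiments 1, 2 and 3, that of 7 oligodendrocyte markers 0.876, 1.25 and 1.36 times, and that of 4 precursor markers 1.07, 1.05 and 0.925 times. The sum of 11 microglia and macrophage markers was 1.20, 1.72 and 1.35 times control, a list that holds Cd14, and its summed signal ran from 4334.5 to 10851.1 in control and from 5849.1 to 12986.4 in the arrays labelled Th1. Fibroblast and meningeal markers, all 7 measured, were at 0.833, 1.79 and 0.650 times. Neuronal, endothelial and T cell lists held few bright genes, with 3 of 7, 1 of 4 and 3 of 8 at a mean log2 signal of at least 5. Their part in the results was not tested, nor was that of the microglia list.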

How the data were processed

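Gene expression was measured on 12 Affymetrix RG-U34A arrays, 1 per culture. The intensity values were deposited as linear probe-set signals, which the authors calculated with dChip, and its settings and any normalization between arrays are not given in the sources used here. Values of experiments 1 and 2 have 2 decimals and those of experiment 3 have 1, with 290 and 403 values below 1 in its arrays labelled control and Th1 against 0 to 3 in the others of these groups. Those others each held 200 to 249 values of exactly 1, against 61 and 63 in the arrays labelled control and Th1 of experiment 3. Values below 0.1 were set to 0.1, log2 was taken and arrays were not rescaled, so that fold changes of dim probe sets depend on low signals. Platform annotation gave 7006 probe sets 1 symbol, 308 several and 1426 none, for 4736 genes, and 6985 of the symbols matched RefSeq by gene ID.

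Limma (version 3.58.1, R 4.3.3) was fitted with terms for group and experiment (the replicate block) and with the prior variance following mean signal, on 12 arrays (6 residual and 6.94 prior degrees of freedom) and on the 8 arrays of experiments 1 and 2 (3 and 3.07). Adjustment by Benjamini-Hochberg covered 8740 probe sets. The title code and the methods pair the arrays, and deviations from group means correlated between 0.439 and 0.708 within an experiment. The sources describe separate cultures for each experiment.

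Each gene stands by its brightest probe set. Named genes were the 15 highest and 10 lowest that passed in experiments 1 and 2, the 10 highest and 10 lowest bright ones with 1 sign in 3 pairs, up to 4 per list and the treatment check. Cell markers and lists were described by counts and medians. Some genes stand on several lists, among them Cxcl10 and Stat2, so that calls of different lists are not separate. The genes, lists and the separate reading of experiment 3 were chosen with earlier results of these data known. Fits were tested on simulated data. Alternatives were other blocks, scalings, filters and prior, the methods' screening criteria, and each array left out.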

Additional observations from a re-analysis of the deposited data

Results flagged for a closer look

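Signals in arrays outside the Th1 and control groups stood over 4-fold above every control array and above both other arrays of their mixture. In the array labelled M/M of experiment 3, Cxcl10 had 5626.4, Mx1 1607.5 and Cd74 1379.7. In the array labelled Th2 of experiment 3, Rsad2 had 725.4, Gbp2 908.5 and Cxcl10 743.8. The mixtures named for these arrays hold no IFN-γ. The M/M arrays of experiments 1 and 2 were nevertheless at 26.3 and 9.92 times control for Cxcl10 and 5.95 and 6.06 times for Mx1. For Cd74 they were at 1.19 and 2.05 times. The Th2 arrays of experiments 1 and 2 were at 0.988 and 0.905 times control for Rsad2 and 0.652 and 3.12 times for Gbp2. For Cxcl10 they were at 0.659 and 0.931 times.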

How the results depend on the processing

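Over 3 experiments limma called 0 probe sets either way in every planned fit except those named here. With only Th1 and control arrays it called 1 higher, and the methods' screening criteria took 174 higher and 68 lower. Leaving out arrays gave 0 to 80 higher and 0 to 2 lower, the 80 without the array labelled Th1 of experiment 3, and 56 and 2 without experiment 3. In experiments 1 and 2 the 56 higher and 2 lower became 0 and 0 without the replicate block (360 and 63 at an unadjusted p under 0.05), 2 and 0 with a random block, 83 and 13 with quantile normalization, 100 and 20 with centring, 78 and 1 with an offset of 16, 94 and 3 among bright probe sets, 0 and 0 without the variance trend (604 and 126 unadjusted), and 292 and 65 by the screening criteria. Leaving out 1 array gave 0 to 1767 higher and 0 to 156 lower. In the latter a group is left with 1 array, which is assumed to vary like the other groups. These calls thus depend on the block and on the variance trend. Of the 56 higher, 49 were also called with centring and 53 with quantile normalization. Of the 22 genes taken by the naming rule that passed by their brightest probe set, 21 kept their call with centring and with quantile normalization, 1 with a random block, 0 without the block or the trend, 1 and 0 without the Th1 array of experiment 1 or 2, and 22 and 4 without the control of experiment 1 or 2. Of the genes that rose by their brightest probe set, Lgals3bp, RT1-CE12 and RT1-A lost their call with centring. The cause was not tested. Direction turned for genes that had not passed. With centring Cdc25b had a log2 fold change of -0.036, Mog -0.089 and Tnfrsf1a -0.17, and with quantile normalization Cdc25b had -0.037 and Tnfrsf1a -0.060. With each array of the 2 groups left out in turn, the log2 fold change ran from -0.44 to 2.18 for Cntf, -0.52 to 2.00 for Gfra1, -0.68 to 2.54 for Hspa1a, -0.084 to 0.70 for Mal, -0.059 to 0.49 for Mog, -0.21 to 2.49 for Nos1, -0.23 to 2.64 for Rpl17, -0.23 to 2.74 for Rpl30 and -0.18 to 1.93 for Rps24, each lowest without the control of experiment 2. Without the Th1 array of experiment 2 it was lowest for Rb1 (-0.095 to 1.30) and Tnfrsf1a (-0.061 to 0.34), and Gfra1 had -0.044. Experiments 1 and 2 could not be fitted with a whole experiment left out. Signal over background is not given with these values, so dim probe sets have no detection limit.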
